A study of Penaeus japonicus with 16 samples.

Results

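Hemocytes, the circulating blood cells of the kuruma shrimp (Penaeus japonicus), were compared with the lymphoid organ on 4 hemocyte arrays and 3 lymphoid organ arrays, 7 of the 16 arrays of the series. Animals of both tissues were untreated and looked healthy, per the labels. Strain and age were not given in the sources used here. All probes of the custom single-colour array entered except 60 controls and 526 probes titled with open reading frames of a virus, which left 13349 of 13875 probes. Of these, 9007 were above background on every usable array of at least 1 of the 2 tissues. The 285 tested probes among the 289 with a caspase title were averaged into 1 gene, so that 8723 rows were tested. Nothing in the labels tied an array to an animal of its own. P-values here therefore reflect the spread between samples only, and that spread may be technical.

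Hemocytes of crustaceans clot the hemolymph, release the prophenoloxidase cascade that ends in melanin, secrete antimicrobial peptides and engulf or encapsulate invaders. The lymphoid organ of penaeid shrimp is a mass of folded tubules beside the hepatopancreas, the digestive gland. Hemolymph passes through its tubule walls, where hemocyte-related cells take up and degrade foreign particles. The comparison therefore sets circulating cells against a solid organ that holds cells of a related kind, hemolymph and connective tissue. In such bulk samples, fewer cells of a type and less RNA per cell cannot be told apart.

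A level is here the log2 signal of a probe relative to the 75th percentile of its array, so that 0 is the 75th percentile, and a difference is hemocytes minus lymphoid organ on the same log2 scale. A row was called at a Benjamini-Hochberg adjusted p below 0.05 and at least 2-fold, from a limma fit to the 7 arrays. Undetected spots of the dimmer tissue were lifted to their array's lowest detected signal where they lay under it, and the fold is then given as at least that size. Levels of different probes were not compared with each other.

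Detected probes made up 63.5 ± 11.3% of an array in hemocytes (SD, n = 4) and 75.6 ± 7.72% in the lymphoid organ (SD, n = 3). The 75th percentile of signal ran from 31.3 to 299.7 in hemocytes and from 101.1 to 172.4 in the lymphoid organ, and hemocytes 1 was the dimmest of the 7 arrays. Across tested rows the Pearson correlation ran from 0.892 to 0.956 between hemocyte arrays, from 0.898 to 0.931 between lymphoid organ arrays and from 0.731 to 0.803 between the tissues. Both slides held arrays of both tissues.

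Far more rows were lower in hemocytes than higher. Of 8723 rows, 2031 (23.3%) were called, 526 higher (6.03%) and 1505 lower (17.3%). The arrays of the 2 tissues did not overlap in 35.7% of all tested rows, with hemocytes above in 15.4% and below in 20.4%. The largest differences were also on the lower side, where 454 rows fell by at least 10-fold and 26 by at least 100-fold, against 81 and 0 rows that rose by as much. Much of the lower side lay at the limit of detection, since 1164 of the 1505 lower rows were not above background on 1 or more hemocyte arrays, and 455 on none of them. Over all 8723 rows, 2942 passed the filter only through the lymphoid organ and 160 only through hemocytes. Of the called rows, 460 higher and 334 lower ones were detected on all 7 arrays. A separate fit to the 5623 rows detected at every usable spot, added after the data were seen, called 356 higher and 309 lower. The median difference in that fit was 0.42. The split also depended on the scaling, with 1416 higher and 1364 lower after scaling to the array median and 361 higher and 1769 lower after scaling to probes detected on all 7 arrays. Without hemocytes 2 the counts were 341 higher and 1235 lower, without lymphoid organ 2 they were 256 and 988, and without lymphoid organ 3 they were 241 and 932. Within slide 1 the counts were 77 higher and 382 lower. Within slide 2, with a single lymphoid organ array, limma called 0 rows in either direction, with 2270 rows at an unadjusted p below 0.05. With the slide as a block they were 460 higher and 1365 lower.

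**Figure D1:**
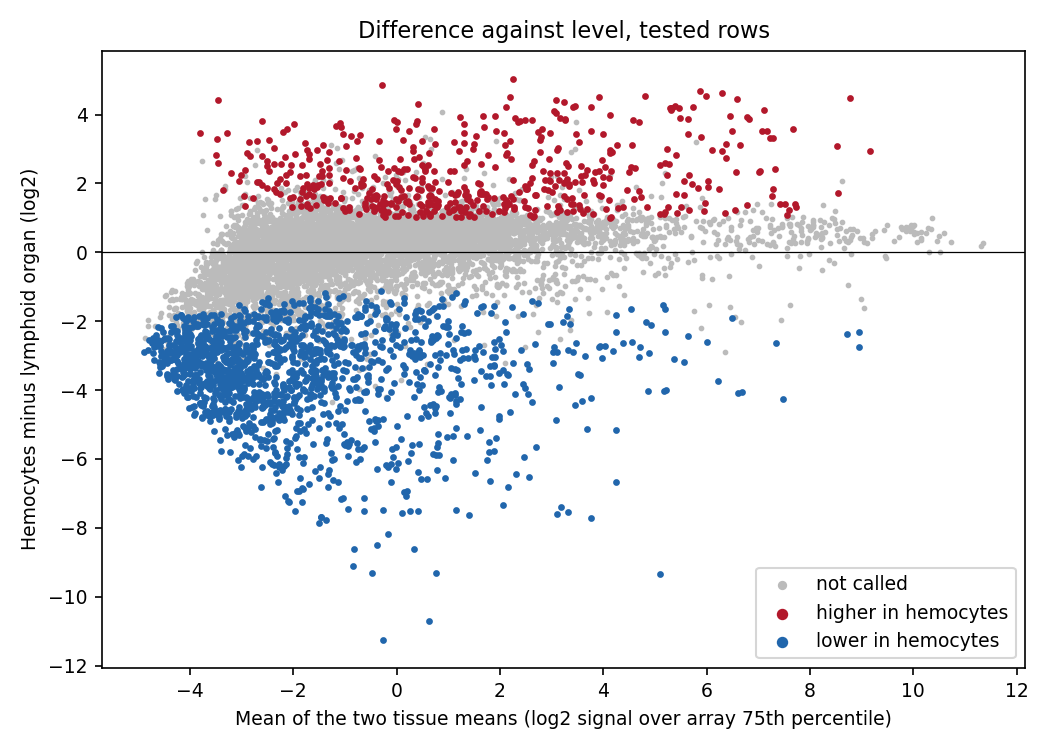
Each point is 1 of 8723 tested rows, with the mean of both tissue means on the x axis and hemocytes minus lymphoid organ on the y axis (both log2). The 526 higher rows reach a difference of 5.04, whereas the 1505 lower rows reach -11.25 and crowd at low levels.

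Of 1505 lower rows, the mean level over the 5 tissues of the series was highest in hepatopancreas for 843 (56%), in the lymphoid organ itself for 286 (19%), in gills for 224 and in muscle for 152. Of 525 higher rows, the averaged caspase row left out, hemocytes had the highest mean for 422 (80.4%) and muscle for 73. Without the rows that were highest in hepatopancreas, a count added after the data were seen, 511 rows were higher and 662 lower.

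Marker lists of other cell types differed between the tissues too. By title, the hepatopancreas list held chymotrypsin, trypsin, hemocyanin and amylase probes. The hemocyte list held prophenoloxidase, transglutaminase, penaeidin, crustin, peroxinectin and astakine. Titles of the marker lists recur in the gene lists below. The summed level of 39 hepatopancreas probes ran from 2.5 to 5.7 in hemocytes, from 6.74 to 7.82 in the lymphoid organ and from 14.3 to 16.7 in hepatopancreas. Of these probes, 11 were detected on all hemocyte arrays and 31 on all lymphoid organ arrays, and of 32 tested, 27 were lower and 0 higher. For 70 gill and epidermis probes the sums ran from 2.93 to 5.24 in hemocytes and from 4.1 to 5.35 in the lymphoid organ, and 24 of 45 tested probes were lower. The sums of 23 muscle probes ran from 0.83 to 5.27 in hemocytes and from 3.45 to 5.26 in the lymphoid organ, with 3 of 14 tested lower. The 34 hemocyte probes summed to between 11.6 and 12.5 in hemocytes and between 8.14 and 8.96 in the lymphoid organ. Of these, 27 were detected on all hemocyte arrays and 32 on all lymphoid organ arrays. Of 32 hemocyte markers tested, 21 were higher and 3 lower in hemocytes. No list of markers for the lymphoid organ was used.

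**Figure D2:**
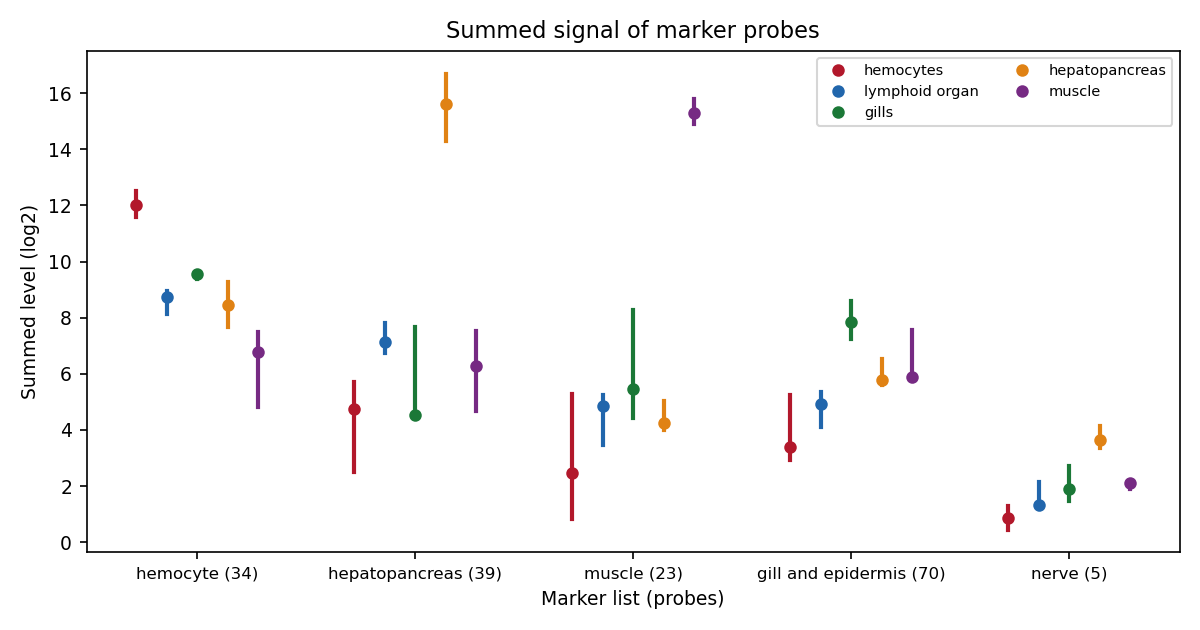
Summed level (log2) of the probes of 5 marker lists in each tissue; points are medians over arrays and bars run from the lowest to the highest array. The hepatopancreas list lies at 6.74 to 7.82 in the lymphoid organ, above hemocytes at 2.5 to 5.7 and far below hepatopancreas at 14.3 to 16.7.

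Clotting and melanization genes had the highest median difference of the 26 gene lists. Of 35 tested probes, 21 rose and 6 fell, and the median difference was 2.94 beside 0.09 over all rows. All 4 probes titled hemolectin, a Drosophila clotting protein, rose, with differences from 2.91 to 3.21. Of 10 transglutaminase probes, for the enzyme that crosslinks the clot, 8 rose, from 2.07 to 3.92. Hemocyte transglutaminase (cluster016678) stood at 8.68, 8.91, 8.10 and 9.27 in hemocytes, against 6.51, 5.34 and 2.62 in the lymphoid organ. Every hemocyte array was above every lymphoid organ array, with a difference of 3.92 (SE 0.79, adjusted p = 0.00782, limma). Families within lists were counted by words in their titles, which were chosen after the values were seen.

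Prophenoloxidase, the copper enzyme precursor that oxidizes phenols toward melanin, rose in 7 of 9 probes, with differences from 3.31 to 3.90. One of its probes (AB065371.1) stood at 3.40, 4.35, 5.11 and 4.06 in hemocytes, against 0.90, 0.03 and 0.11 in the lymphoid organ. The groups were far apart, by 3.89 (SE 0.44, adjusted p = 0.000544), and 3 further probes (cluster019910, cluster019948 and cluster019949) carried differences of 3.80 to 3.83. Probe AB073223.1, at 8.89 ± 0.93 in hemocytes (SD, n = 4) and 5.57 ± 1.86 in the lymphoid organ (SD, n = 3), lost its call without lymphoid organ 3 (adjusted p = 0.0584). Phenoloxidase activating factor (cluster033300), a serine protease homolog of the cascade, stood at 6.67, 5.31, 5.91 and 4.40 in hemocytes, against 0.97, 2.14 and 0.89 in the lymphoid organ. It was 18.8-fold higher in hemocytes (adjusted p = 0.000997), and gills, at 5.90, had the highest mean of the 5 tissues. Mas-like protein (cluster006680), titled after a Drosophila protease homolog, was 18.4-fold higher (adjusted p = 0.00106). Serine protease easter (cluster031630), named for a Drosophila protease that activates the Toll ligand, was 22.9-fold higher (adjusted p = 0.00171).

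Other titles of the same pathway went the opposite way. One prophenoloxidase probe (cluster030055) was called lower (adjusted p = 0.0261), detected on 0 hemocyte arrays and at least 1.52-fold lower, and this call held in 2 of 7 fits that left out 1 array. Hemocyte protein-glutamine gamma-glutamyltransferase (cluster013341), a transglutaminase by title, stood at -4.55, -6.71, -4.79 and -4.48 in hemocytes, where 1 of 4 arrays detected it, against 4.74, 4.76 and 3.04 in the lymphoid organ. Despite the word hemocyte in its title it was at least 274-fold lower in hemocytes (fitted difference -9.31, SE 0.66, adjusted p = 5.69e-05). Its mean in gills, 4.87, was the highest of the 5 tissues. Clottable protein, the substrate that polymerizes into the clot, fell in both of its probes. Probe cluster001162 was detected on 0 of 4 hemocyte arrays and on all 3 lymphoid organ arrays, at least 19.4-fold lower (adjusted p = 0.000848). The other probe (DQ915453.1) was detected on every array of both tissues, with means of 6.03 in hemocytes and 8.65 in the lymphoid organ. Its difference was -2.62 (adjusted p = 0.00639). Of the 6 lower rows of this list, 4 were highest in gills and 2 in hepatopancreas.

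Protease inhibitors split into large changes of both signs, with 17 of 44 probes higher and 13 lower. Of the 44, 13 passed the filter only through the lymphoid organ, beside 2942 of all 8723 rows. Of the 30 detected on all 7 arrays 16 were higher and 3 lower, with a median difference of 2.28. Alpha 2-macroglobulin, a thioester protein that entraps proteases, held the largest rise among the named rows. Its probe cluster000561 stood at 4.36, 4.90, 4.99 and 4.85 in hemocytes, against 0.57, -0.69 and -0.67 in the lymphoid organ. The hemocyte arrays lay within a narrow band and well above the others, 32.9-fold higher (difference 5.04, SE 0.39, adjusted p = 9.47e-05). Within slide 1 the difference was 4.69 and within slide 2 it was 5.59. Of 10 tested probes with this title, 8 rose, from 3.97 to 5.04. The other 2 fell, and cluster006520 stood at -0.48, -3.83, -0.62 and -2.41 in hemocytes, against 2.96, 4.18 and 3.19 in the lymphoid organ. That probe was 38.8-fold lower in hemocytes (adjusted p = 0.00189), and its mean was highest in the lymphoid organ among the 5 tissues. A serine proteinase inhibitor (AB505891.1) was 14.9-fold higher (adjusted p = 0.00156). Another with the same title (cluster009097) was detected on 0 hemocyte arrays and was at least 48.2-fold lower (adjusted p = 0.00038). A kazal-type serine protease inhibitor-like protein (cluster035591) fell 101-fold (adjusted p = 9.76e-05).

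Antimicrobial peptides differed in direction between and within families. Of 35 tested probes for peptides and lysozymes, 9 were higher and 8 lower, and the median difference was 0.04. All 5 crustin-like peptides, cysteine-rich peptides of hemocytes, were called higher with differences from 4.12 to 4.24, and whether these probes share a target was not tested. Type 5 (AB121744.1) stood at 7.65, 8.25, 9.58 and 4.55 in hemocytes, against 1.22, 3.67 and 4.90 in the lymphoid organ. Hemocytes 4 lay below lymphoid organ 3, so the groups overlapped. The call (adjusted p = 0.029) held in 2 of 7 fits that left out 1 array, with adjusted p up to 0.0907 without lymphoid organ 1. Each of the other 4 likewise held in 2 of 7, with adjusted p up to 0.102.

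Anti-lipopolysaccharide factors, peptides that bind bacterial endotoxin, had 0 of 12 tested probes higher and 5 lower. Probe cluster015821 stood at -4.35, -6.53, -6.92 and -5.73 in hemocytes, none of them above background, against 4.22, 5.97 and 5.91 in the lymphoid organ. This was the largest difference of all rows with a protein title, at least 676-fold lower in hemocytes (fitted difference -11.25, SE 0.68, adjusted p = 3.97e-05). Its means in gills, hepatopancreas and muscle were -4.09, -0.83 and -4.45, so the lymphoid organ carried the highest level of the 5 tissues. The difference was -10.54 within slide 1 and -12.23 within slide 2. Anti-lipopolysaccharide factor 2 (AB453738.1) stood at 8.03, 7.64, 7.52 and 6.99 in hemocytes, against 9.68, 9.82 and 10.22 in the lymphoid organ. Both tissues were bright for it, and it fell 5.14-fold (adjusted p = 0.00256). Of 8 tested crustin p probes 2 rose and 2 fell. The rises of cluster005008 (4.18, adjusted p = 0.0295) and cluster010681 (3.43, adjusted p = 0.0461) held in 2 and 1 of the 7 fits that left out an array. Crustin p (cluster001583) was at least 4.64-fold lower (adjusted p = 0.00909, up to 0.0524 with an array left out). Crustin p (cluster014343) fell 15.6-fold (adjusted p = 0.000467) and had its highest mean, 8.20, in hepatopancreas.

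**Figure D3:**
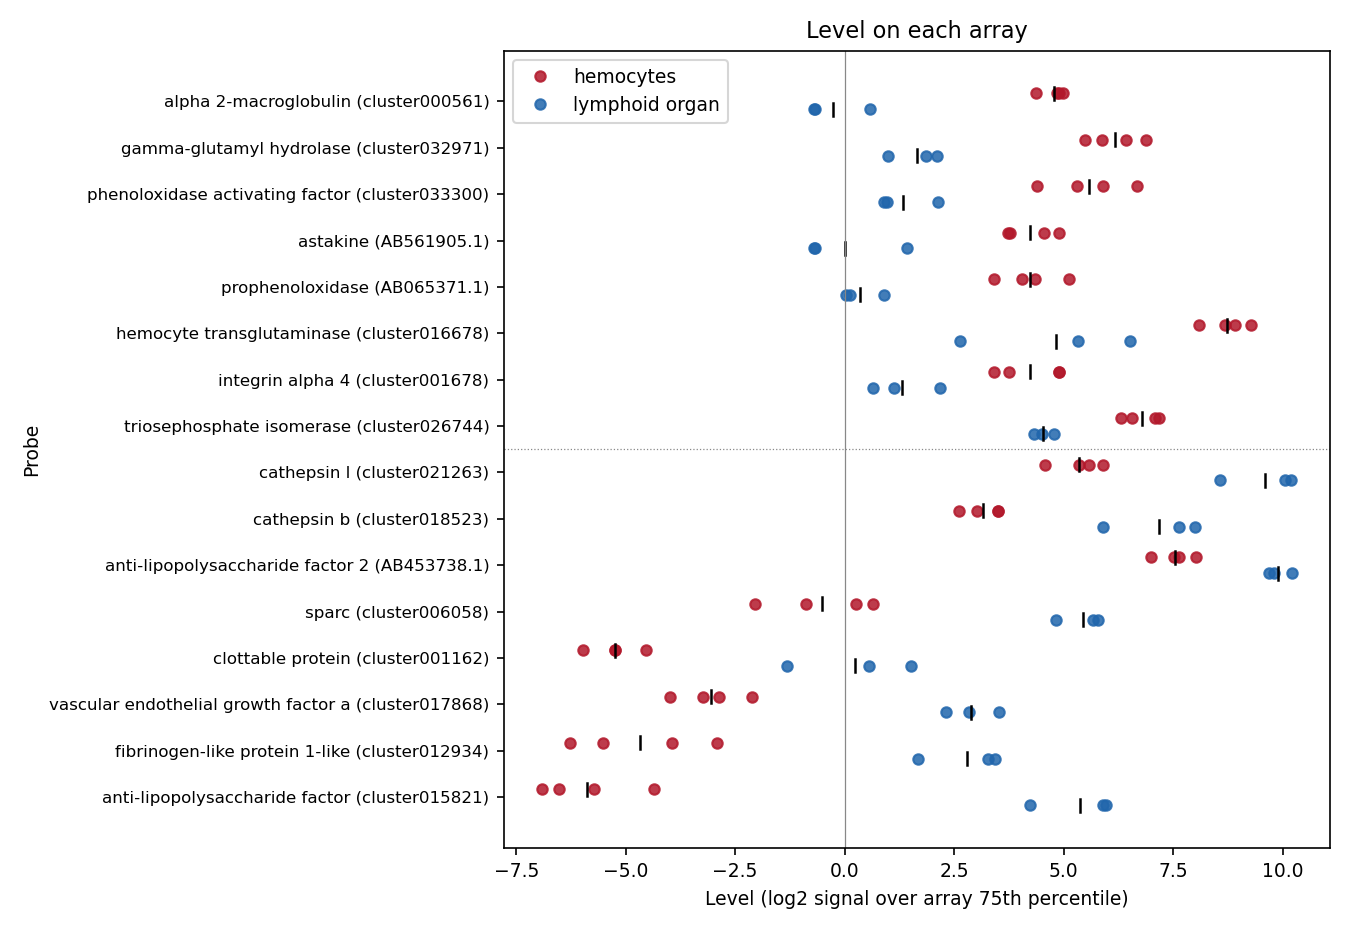
Level of 16 named probes on each of the 4 hemocyte arrays and 3 lymphoid organ arrays (log2), with black ticks at the tissue means. The upper 8 probes lie higher in hemocytes and the lower 8 lower, and the arrays of the 2 tissues do not overlap for any of the 16.

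C-type lectins, proteins that bind sugars on microbes, were mostly lower in hemocytes. Of 40 tested probes 3 rose and 28 fell, and the median difference was -2.99, or -2.08 with undetected spots at the lowest detected signal. The filter let 27 of the 40 pass through the lymphoid organ alone, which selects for lower signals in hemocytes. Of the 12 detected on all 7 arrays, 3 rose and 8 fell. Mutant c-type lectin (cluster034846) stood at 6.99, 5.64, 6.15 and 5.63 in hemocytes, against 3.44, 2.92 and 2.63 in the lymphoid organ, 8.62-fold higher (adjusted p = 0.00108). C-type lectin cluster011898 was detected on 1 of 4 hemocyte arrays and was at least 144-fold lower (adjusted p = 0.00109). Among the 28 lower rows the mean was highest in hepatopancreas for 16 and in the lymphoid organ for 7. The hepatopancreas marker sums given above were higher in the lymphoid organ than in hemocytes, and their part in this result was not tested.

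Fibrinogen-related and other recognition proteins showed 10 lower and 0 higher of 28 probes, with 14 that passed only through the lymphoid organ. Of the 14 detected on all 7 arrays 1 was lower, beside 334 of the 5556 tested rows detected on all 7. Fibrinogen-like protein 1-like (cluster012934) stood at -3.95, -6.27, -2.92 and -5.52 in hemocytes, against 1.67, 3.28 and 3.44 in the lymphoid organ. It was detected on 1 of 4 hemocyte arrays and was at least 75.9-fold lower (adjusted p = 0.000449). Ficolin b (cluster020753), a fibrinogen-domain lectin by title, was detected on 0 hemocyte arrays and was at least 43.1-fold lower (adjusted p = 0.00247). Carcinolectin 5a isoform (cluster020755), titled after a horseshoe crab lectin, was at least 181-fold lower (adjusted p = 4.28e-05). Of the 10 lower rows, 6 had their highest mean in the lymphoid organ and 1 in hepatopancreas.

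Of 30 tested probes for the Toll, IMD and JAK/STAT pathways of immune signalling, 3 were higher (10%) and 1 lower (3.33%). Over all rows these shares were 6.03% and 17.3%. All 3 higher ones were STAT, the transcription factor of the cytokine pathway, with differences from 1.55 to 2.23. STAT probe cluster015935 stood at -1.79, -1.12, -0.44 and -0.76 in hemocytes, against -2.98, -3.46 and -3.34 in the lymphoid organ, and was at least 4.7-fold higher (adjusted p = 0.00627), as 1 of 3 lymphoid organ arrays was above background. The 6 Toll receptor probes and 3 relish probes, for the NF-kappa-B factor of the IMD pathway, were not called, with differences from -2.03 to 0.99 and from -0.04 to 0.06. The lower one, the tumor necrosis factor ligand (AB491497.2), a cytokine, stood at -1.28, -2.69, 0.38 and 0.47 in hemocytes, against 5.67, 4.29 and 3.88 in the lymphoid organ. It fell 42-fold (adjusted p = 0.00168), and its mean in muscle, 7.61, was the highest of the 5 tissues. For RNA interference, the antiviral and gene-silencing pathway, 1 of 20 probes was called, partner of drosha (cluster009883) with a rise of 2.33-fold (adjusted p = 0.0312). That call held in 2 of 7 fits that left out 1 array (adjusted p up to 0.126) and was lost with common-probe scaling (adjusted p = 0.082) and with the slide as a block (adjusted p = 0.0537). The 5 argonaute probes differed by 0.19 to 0.49.

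Astakine, the prokineticin-like cytokine that drives hemocyte formation in crustaceans, rose in both of its probes. Probe AB561905.1 stood at 4.54, 4.89, 3.77 and 3.74 in hemocytes, against 1.42, -0.70 and -0.67 in the lymphoid organ, 18.6-fold higher (adjusted p = 0.00112). The level in lymphoid organ 1 lay apart from the other 2 arrays, yet below all hemocyte arrays. Runt-related transcription factor 1-like (cluster031640), of a family that directs blood cell fate in flies and vertebrates, was 8.36-fold higher (adjusted p = 0.00479).

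Growth factor receptors and ligands took opposite directions in part. Of 34 probes 9 rose and 9 fell (median difference -0.22), and of the 21 detected on all 7 arrays 9 rose and 1 fell (median 0.99). All 4 probes for VEGF receptors, tyrosine kinases that bind vascular endothelial growth factor, rose, with differences from 1.79 to 3.63. Receptor probe cluster022926 stood at 0.50, 2.18, 1.54 and -1.22 in hemocytes, against -2.68, -3.20 and -2.78 in the lymphoid organ (12.4-fold, adjusted p = 0.00701). Of the 6 ligand probes, 2 rose and 1 fell. The one that fell, vascular endothelial growth factor a (cluster017868), stood at -3.24, -3.99, -2.86 and -2.11 in hemocytes, against 3.53, 2.84 and 2.32 in the lymphoid organ. It was at least 53.8-fold lower (adjusted p = 0.000127), while another probe with the same title (cluster017575) was higher by 2.52 (adjusted p = 0.0025). Protein wnt-5b-like (cluster011639), a secreted morphogen, was detected on 0 hemocyte arrays and all 3 lymphoid organ arrays, at least 85.6-fold lower (adjusted p = 6.49e-05). Of 7 probes for bone morphogenetic proteins and their receptors 4 were tested, and all 4 fell, with fitted differences from -5.64 to -1.87. Only 1 of them was detected on all 7 arrays. Both the wnt probe and the lower VEGF probe had their highest mean in the lymphoid organ.

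The machinery of lysosomes, where engulfed material is degraded, was unevenly lower in hemocytes. Of 77 tested probes 27 fell and 3 rose, with 24 that passed only through the lymphoid organ, and of 50 detected on all 7 arrays 15 fell and 3 rose. All 5 probes of cathepsin L and all 3 tested probes of cathepsin B, both cysteine proteases, fell, with differences from -4.26 to -3.46 and from -4.02 to -3.73. Cathepsin l (cluster021263) stood at 5.34, 5.58, 5.90 and 4.57 in hemocytes, against 8.57, 10.20 and 10.05 in the lymphoid organ. All 7 spots were above background, and the fall was 19.2-fold (difference -4.26, SE 0.50, adjusted p = 0.000594). The same probe averaged 7.14 in gills, 4.01 in hepatopancreas and 5.45 in muscle. Cathepsin b (cluster018523) fell 16.2-fold (adjusted p = 0.000901) and palmitoyl-protein thioesterase 1 (cluster021468), which removes fatty acids from proteins, 19-fold (adjusted p = 0.00116). All 3 probes named here had their highest mean in the lymphoid organ. Of the 27 lower rows of the list, 12 were highest there, 11 in hepatopancreas, 3 in muscle and 1 in gills.

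The proton pump that acidifies the same compartment was not called. None of 14 V-ATPase probes was called, and their differences ran from -0.91 to 0.98. The 3 rises of the list were probes for the gamma-interferon-inducible lysosomal thiol reductase, which reduces disulfide bonds of engulfed proteins. Probe cluster021235 stood at 7.14, 8.03, 7.89 and 7.21 in hemocytes, against 4.40, 2.75 and 3.94 in the lymphoid organ, 14.6-fold higher (adjusted p = 0.00063). Gamma-glutamyl hydrolase (cluster032971), a peptidase that trims folate chains, stood at 6.89, 6.43, 5.89 and 5.48 in hemocytes, against 1.86, 2.12 and 0.99 in the lymphoid organ. It was 22.9-fold higher (difference 4.51, SE 0.43, adjusted p = 0.000249).

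Among integrins and matrix proteins 7 of 59 probes rose and 31 fell, with a median difference of -1.85. Of the 59, 23 passed only through the lymphoid organ, and of the 34 detected on all 7 arrays 6 rose and 13 fell, with a median of -0.76. Integrins, the receptors by which cells hold the matrix, were mixed, with 5 of 21 tested probes higher and 7 lower. Integrin alpha 4 (cluster001678) stood at 3.75, 4.89, 4.89 and 3.41 in hemocytes, against 2.18, 1.14 and 0.64 in the lymphoid organ (7.54-fold, adjusted p = 0.00406). Integrin beta-ps-like (cluster024954) was 4.57-fold higher (adjusted p = 0.00258), whereas an alpha-ps2-like probe (cluster015119) was detected on 0 hemocyte arrays and at least 11-fold lower (adjusted p = 0.000592). Laminins, the basement membrane proteins, fell in 5 of 6 tested probes and rose in 0. Sparc (cluster006058), a collagen-binding matrix protein, stood at 0.25, -2.05, 0.65 and -0.89 in hemocytes, against 4.83, 5.79 and 5.68 in the lymphoid organ. It fell 61.5-fold (adjusted p = 0.00038), and papilin (cluster018825), another basement membrane protein, by at least 32.8-fold (adjusted p = 5.69e-05). Of the 31 lower rows the highest mean was in hepatopancreas for 11, the lymphoid organ for 9, muscle for 6 and gills for 5.

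The actin list had 6 probes higher and 6 lower of 57. Cortactin (cluster029211), which stabilizes branched filaments, was 3.2-fold higher (adjusted p = 0.0106), and thymosin isoform 1 (cluster014612), which binds monomers, was 6.18-fold lower (adjusted p = 0.00306).

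Hemocyanins, the oxygen carriers of the hemolymph, fell in 14 of 15 probes, and 11 of the 15 passed only through the lymphoid organ. Hemocyanin 1 (AY887065.1) stood at -2.68, -3.74, -4.67 and -0.49 in hemocytes, against 0.80, 0.90 and 1.61 in the lymphoid organ. It was at least 15.4-fold lower (adjusted p = 0.00991) and averaged 9.69 in hepatopancreas. The 4 hemocyte arrays spread widely, with hemocytes 4 the highest. Trypsin (cluster018140), a digestive protease, was likewise highest on hemocytes 4 among the hemocyte arrays, with -1.10, -3.52, -2.10 and 1.55 in hemocytes, against 2.92, 3.12 and 4.08 in the lymphoid organ, and a mean of 12.31 in hepatopancreas. It was 25.5-fold lower in hemocytes (adjusted p = 0.00977). Of 44 tested digestive enzymes 20 fell and 1 rose, lipase 3 (cluster000371) at 11.9-fold (adjusted p = 0.00166), and 27 passed only through the lymphoid organ. All 14 lower hemocyanin rows and 17 of the 20 lower digestive rows were highest in hepatopancreas. The hepatopancreas marker list was itself made of hemocyanin and digestive enzyme titles, so its sums given above are not a separate observation. That the lower rows came from hepatopancreas RNA in the lymphoid organ samples was not tested. Cuticle and mucus proteins fell in 33 of 59 probes, of which 42 passed only through the lymphoid organ. Of the 17 detected on all 7 arrays 4 fell and 2 rose, with a median of -0.34, against -2.33 over the 59, and 27 of the 33 lower rows were highest in hepatopancreas. The 2 that rose were crustocalcin-a and crustocalcin-b (AB114444.1 and AB114445.1), calcification proteins of the cuticle, at 3.14-fold (adjusted p = 0.0255) and 3.21-fold (adjusted p = 0.0262). Both calls held in 5 of 7 fits that left out 1 array and were lost without lymphoid organ 1 or 2, with adjusted p up to 0.0834 and 0.0947.

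Lipid transport and storage had 5 of 36 probes higher and 17 lower, with 19 that passed only through the lymphoid organ. Of the 15 detected on all 7 arrays 5 were higher and 4 lower. Low density lipoprotein receptor-related protein 2 (cluster034568), an endocytic receptor, was 15.6-fold higher (adjusted p = 0.00395). Vitellogenin 2 (cluster029332), a yolk precursor by title, was 12.2-fold lower in hemocytes (adjusted p = 0.00146) and had its highest mean in gills. Muscle sarcomere proteins had 1 of 24 probes higher and 6 lower, with 13 that passed only through the lymphoid organ. Of the 10 detected on all 7 arrays 1 was higher and 1 lower, and the median difference was 0.06, against -1.88 over the 24. The range of the muscle marker sums in hemocytes, given above, enclosed that of the lymphoid organ.

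**Figure D4:**
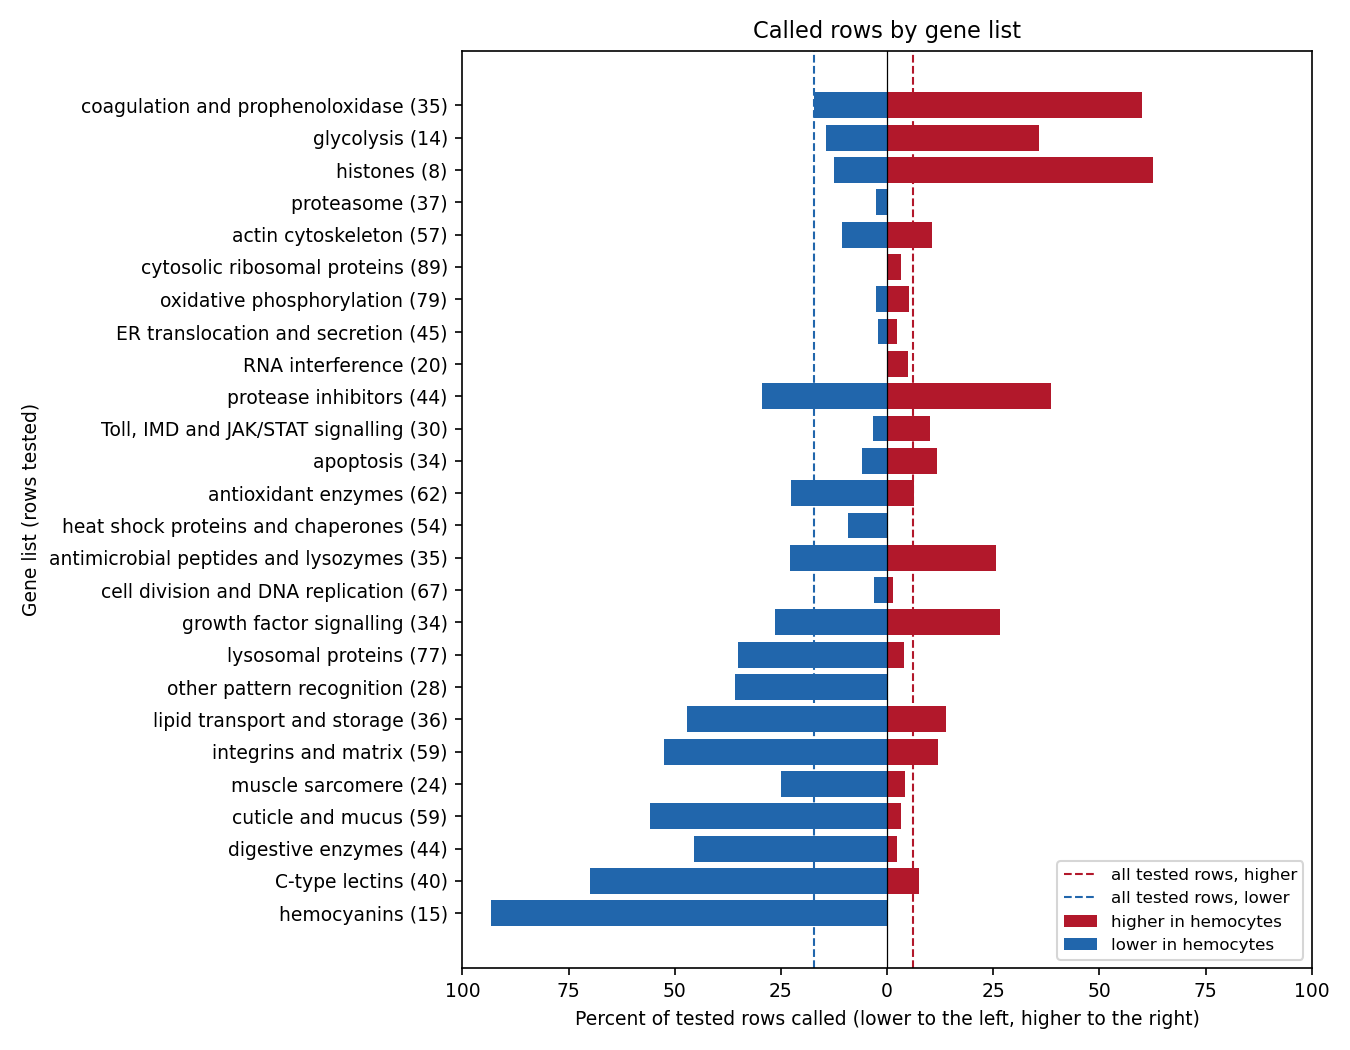
Percent of tested rows called higher (to the right) and lower (to the left) in hemocytes for 26 gene lists, sorted by median difference, with the rows tested in brackets and dashed lines at the shares over all rows (6.03% and 17.3%). Coagulation and prophenoloxidase have 60% higher, and hemocyanins 93.3% lower.

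The lists of ribosomal, proteasome and respiratory chain proteins were rarely called. Of 89 probes for cytosolic ribosomal proteins 3 rose and 0 fell, with a median difference of 0.65, the largest being ribosomal protein sa (cluster015880) at 2.51-fold (adjusted p = 0.0213). Its call held in 4 of 7 fits that left out 1 array, with adjusted p up to 0.0971. Of 37 proteasome probes 0 rose and 1 fell, the 26s proteasome non-atpase regulatory subunit 10 (cluster016360), at least 2.28-fold lower (adjusted p = 0.0117). That call was lost with a floor on undetected spots (adjusted p = 0.267) and without lymphoid organ 2 (adjusted p = 0.0566). For the respiratory chain 4 of 79 probes rose and 2 fell. The 4 that rose were subunits that mitochondrial DNA encodes in animals, and so by its title was 1 of the 2 that fell, nadh dehydrogenase subunit 5 (cluster004538), detected on 0 hemocyte arrays and at least 2.92-fold lower (adjusted p = 0.0111, lost without lymphoid organ 2 at 0.0564). The other, cytochrome c oxidase subunit viia (cluster023957), was at least 7.04-fold lower (adjusted p = 0.00311). Cytochrome c oxidase subunit ii (cluster019491) stood at 10.03, 9.36, 9.09 and 9.14 in hemocytes, against 7.88, 7.51 and 7.67 in the lymphoid organ, 3.29-fold higher (adjusted p = 0.00989). The other 3 that rose lost their calls in 2 or more fits that left out 1 array. Glycolysis was called more often, as 5 of 14 probes rose and 2 fell, with a median difference of 1.49. These shares were 35.7% and 14.3%, beside 6.03% and 17.3% over all rows. Triosephosphate isomerase (cluster026744), which interconverts the triose phosphates, stood at 7.17, 6.56, 7.09 and 6.32 in hemocytes, against 4.79, 4.50 and 4.32 in the lymphoid organ (4.75-fold, adjusted p = 0.00207). Enolase (cluster030590), a later step, was 4.2-fold higher (adjusted p = 0.00595). The enolase probe and triosephosphate isomerase cluster026744 had their highest means in muscle, at 9.93 and 9.80. A second triosephosphate isomerase probe (cluster009659) was 6.71-fold lower (adjusted p = 0.0149), a call lost in 1 of 7 fits that left out an array (adjusted p = 0.0566).

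Linker histone H1, which compacts chromatin between nucleosomes, rose in 5 of 6 probes. Histone h1 (cluster030594) stood at 6.18, 4.23, 5.14 and 5.53 in hemocytes, against 2.96, 2.88 and 2.57 in the lymphoid organ (5.52-fold, adjusted p = 0.00495). Of 67 probes for cell division and DNA replication 1 was higher and 2 lower. The larger of the 2 falls was in nuclear mitotic apparatus protein 1 (cluster000630), which organizes spindle poles, at least 6.06-fold (adjusted p = 0.00809).

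Antioxidant enzymes differed between probes of the same title. Glutathione s-transferase cluster025794, a detoxifying enzyme, stood at 6.29, 5.65, 5.50 and 5.70 in hemocytes, against 4.05, 2.90 and 2.96 in the lymphoid organ, 5.59-fold higher (adjusted p = 0.00239). Glutathione s-transferase cluster013187 was detected on 0 hemocyte arrays and was at least 42.6-fold lower (adjusted p = 9.47e-05). That probe had its highest mean in the lymphoid organ. Over the list 4 of 62 probes were higher (6.45%) and 14 lower (22.6%), beside 6.03% and 17.3% over all rows. Heat shock proteins had 0 higher and 5 lower of 54, and none of the 5 was among the 45 detected on all 7 arrays. Small heat shock protein (cluster022933), a chaperone that holds unfolded proteins, was at least 30.9-fold lower (adjusted p = 0.00103).

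Caspases, the proteases of programmed cell death, were covered by 289 probes, most of them titled only caspase. As 1 gene the mean level was 0.17, 0.23, -0.11 and -1.28 in hemocytes, against -2.50, -2.79 and -4.41 in the lymphoid organ. Hemocytes 4 and lymphoid organ 3 were the lowest of their tissues, and the groups did not overlap. The rise was 2.98 (SE 0.58, adjusted p = 0.00627), or 2.64 with undetected spots at the lowest detected signal, since 39 of the 289 probes were above background on lymphoid organ 3, against 282 or more on each hemocyte array. Tested singly, 269 of 285 were higher and 1 lower, and 263 of the 269 were among the 267 titled only caspase. The lower one, caspase 2 (cluster013967), differed by -2.20 (adjusted p = 0.0322), and caspase 3 (cluster030805) by 3.09 (adjusted p = 0.000285). None of the probes titled caspase-1 or caspase nc-like was called. These single probes and titles were named after their values were seen. Over the apoptosis list, in which the caspases counted once, 4 of 34 rows rose and 2 fell. Baculoviral iap repeat-containing protein 7-like (cluster010470), of the family that inhibits caspases, was at least 24.4-fold lower in hemocytes (adjusted p = 0.00019).

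Among the remaining large rises were fortilin binding protein 1 (cluster013905), at 24.9-fold (adjusted p = 0.000189), and single vwc domain protein 5 (cluster008538), at 23.1-fold (adjusted p = 0.00508). Single VWC domain proteins respond to viral infection in arthropods. Apolipoprotein d (cluster032394), a small lipid carrier, was 18.6-fold higher (adjusted p = 0.0295), but its call held in 2 of 7 fits that left out 1 array. Ricin b lectin (cluster006883) was at least 20-fold higher (adjusted p = 0.00551), with 2 of 3 lymphoid organ arrays above background.

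Among the remaining large falls, calcium-activated chloride channel regulator 1 precursor (cluster036666) stood at 0.51, -0.54, -0.82 and 0.46 in hemocytes, against 7.22, 8.12 and 7.49 in the lymphoid organ. It was detected on all 7 arrays and fell 209-fold (adjusted p = 3.97e-05). Heme-binding protein 2 (cluster022204) stood at -1.87, -2.19, -3.0 and -3.30 in hemocytes, against 6.24, 5.06 and 3.37 in the lymphoid organ. It fell 178-fold (adjusted p = 0.000156) and averaged -2.68, -0.87 and -0.80 in gills, hepatopancreas and muscle. Sodium-coupled monocarboxylate transporter 1 (cluster017578), which imports lactate and short fatty acids in mammals, was detected on 0 hemocyte arrays. It stood at 6.89, 3.36 and 1.35 in the lymphoid organ, a wide spread, and was at least 235-fold lower in hemocytes (adjusted p = 0.00171). Cingulin (cluster001268), a tight junction protein in vertebrates, was at least 359-fold lower (adjusted p = 0.00018), and a von willebrand factor d and egf domain-containing protein (cluster003468) at least 310-fold (adjusted p = 3.68e-05). The probe titled viral a-type inclusion protein (cluster001267), whose title is a similarity match, fell 655-fold (adjusted p = 0.000515). These last 5 rows had their highest mean in the lymphoid organ.

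**Figure D5:**
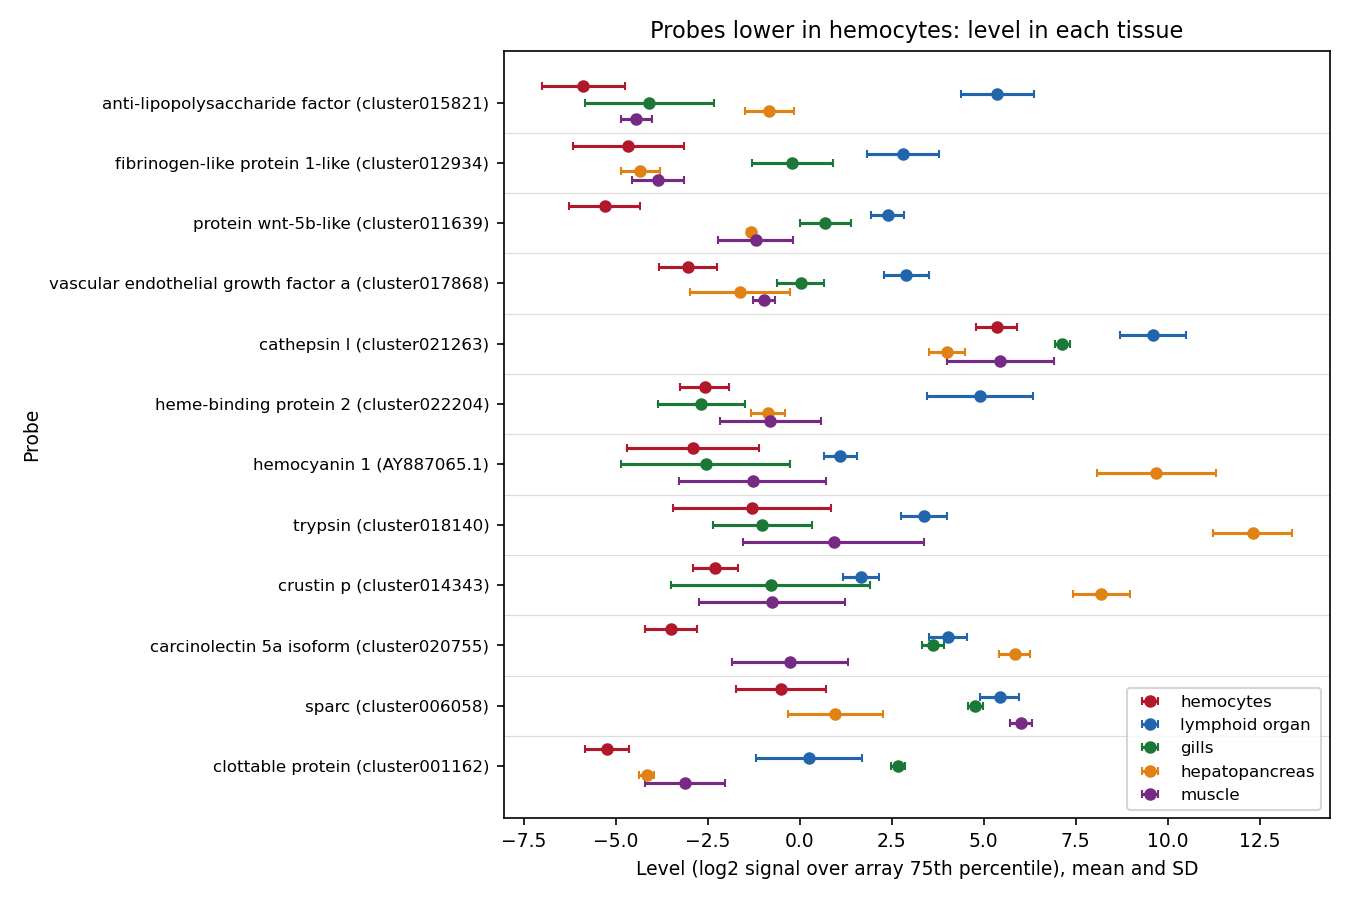
Level (log2, mean and SD over 3 or 4 arrays) in each of 5 tissues for 12 probes that were lower in hemocytes than in the lymphoid organ. The upper 6 are highest in the lymphoid organ and the next 4 in hepatopancreas, while sparc is highest in muscle and clottable protein in gills.

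Of the 208 probes chosen by rule for description, all 208 kept their direction within each slide, and 128 were called in every fit that left out 1 array. The 208 were picked as called rows of the fit to these same arrays, which favours both counts.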

How the data were processed

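Cy3-labelled RNA of 5 shrimp tissues was put on a custom array, per the labels' protocols. The authors deposited processed signals as linear intensity values from Agilent Feature Extraction 10.7.3.1, per the submitters' processing notes, with detection flags, and log2 values scaled to the 75th percentile, per the file headers and their comparison with the signals. Saturation flags were not used here. Intensities were divided by each array's 75th percentile over non-control probes and log2-transformed, and compromised spots were left out. limma 3.58.1 in R 4.3.3 fitted both tissue means with a variance trend, on 5 residual plus 4.23 prior degrees of freedom. In simulated arrays of this design, 200 of 8723 rows were changed per size, with independent normal noise and no limit of detection. Of rows with log2 differences of 1, 2 and 4, 6, 48 and 88.5% were called. The real data differ in these settings, so the shares do not carry over directly. Named were the 15 largest called rows in each direction with a protein title, 1 per title, up to 4 called rows per list and direction, and called markers. The comparison, members and lists were chosen with earlier results of these data known. Lists were matched by title words. No sequences were used here.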

Additional observations from a re-analysis of the deposited data

Results flagged for a closer look

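Of 213 values tested over the 4 hemocyte arrays, 4 (1.9%) had 1 array far from the other 3 by Dixon's ratio, where chance gives about 1 in 20. Hemocyte protein-glutamine gamma-glutamyltransferase (cluster013341) stood at -6.71 on hemocytes 2. Carcinolectin 5a isoform (cluster020755) stood at -2.43 on hemocytes 1. Ficolin 1-like (cluster025296) stood at 2.52 on hemocytes 4, and signal recognition particle 68kda (cluster034998) at 2.81 on the same array. The last 2 calls (adjusted p = 0.0448 and 0.031) each held in 2 of 7 fits that left out 1 array.

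The 526 virus-titled probes lay outside the comparison. Above background were 52 to 87 of them on the hemocyte arrays and 85 to 138 on the lymphoid organ arrays, with the most, 138, on lymphoid organ 1. Of 73 that passed the filter when kept, 3 were higher and 30 lower in hemocytes. No sample was labelled as infected, and whether these signals came from shrimp transcripts was not tested.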

How the results depend on the processing

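All 208 probes kept their direction under each of the alternatives in which they were tested. Their choice as called rows of the same arrays favours this. Counts of higher rows moved by more than 1.5 times, from 526, to 1416 with median scaling and 866 with array weights. With the caspase probes kept separate they were 831, and at 4-fold or more 264. They were 77 within slide 1 and 313 with the replicate block. Without hemocytes 2, lymphoid organ 2 or lymphoid organ 3 they were 341, 256 and 241. Counts of lower rows moved by as much, from 1505, to 382 within slide 1 and 984 with the replicate block. Without lymphoid organ 2 or 3 they were 988 and 932. The fit within slide 2, with a single lymphoid organ array, is left out of these counts. In alternatives chosen after seeing the data, lower rows numbered 309 in the separate fit to rows detected at every usable spot. They numbered 662 without rows highest in hepatopancreas. Leaving out hemocytes 1 and lymphoid organ 1 together, also chosen then, gave 733 higher and 1718 lower. Scaling moved the median of all rows from 0.09 to 0.48 with median scaling and to -0.19 with common-probe scaling. Leaving out each array gave 241 to 594 higher and 932 to 1743 lower, with the fewest without lymphoid organ 3. Whether arrays with the same replicate number shared an animal is not known from the labels. Deviations from the tissue means correlated at -0.296, -0.221 and 0.077 between same-numbered arrays. Between differently numbered ones they ran from -0.157 to 0.305, and so few pairs cannot decide it. The replicate block gave 313 higher and 984 lower. Medians near 0 changed sign with scaling, among them antimicrobial peptides (-0.23 with common-probe scaling), apoptosis (-0.05) and heat shock proteins (-0.20). With a floor on undetected spots 465 rows were higher and 1051 lower. The causes of these shifts were not tested. Low signal limits the lower side, since 43 lower rows were under 2-fold at the lowest detected signal.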
